A study of Rattus norvegicus with 35 samples.

Results

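The olfactory receptor (OR) genes of rat chromosome 8 were followed in the olfactory epithelium of Brown Norway rats of 3 ages. An array probe was counted as a member when its gene name began with Olr or its description held the words olfactory receptor, and when the array's annotation placed it on chromosome 8. The rule found 149 probes of 148 genes among the 1136 OR probes of the array and its 41012 probes in all, and used no measured value. Of these, 145 matched a RefSeq gene through their transcript accession, 139 of them under a newer symbol, and 4 matched none. The newborn group held 19 pups of unrecorded sex, 3 to 5 days old, from litters L1 (4 pups) and L2, L3 and L4 (5 pups each), with 1 array from 1 side of the nose of each pup. The adult group held 4 male rats aged 9 weeks and the old group 4 male rats aged 22 months, each with 2 arrays, 1 from each nostril, which were averaged per rat. Pups of a litter shared a mother and the older animals were all males, so age came together with litter and sex.

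ORs are G protein-coupled receptors carried on the cilia of olfactory sensory neurons, where an odorant bound to the receptor activates the G protein Golf, adenylyl cyclase and a cyclic nucleotide-gated channel. Each mature neuron transcribes a single OR gene from a single allele, so the level of an OR mRNA in whole epithelium follows the number of neurons that chose it and the RNA made by each. In these bulk samples fewer neurons and less RNA per neuron cannot be told apart. OR genes lie in clusters of related copies along the chromosomes, and their RefSeq symbols name the family by number and the subfamily by letters, as in Or8b. The odorants of the receptors named here were not considered.

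The 60-base probes are shown for the genes on which the results turn: 5 with higher levels in newborn rats than in adults and 5 with lower levels. Capitals mark the longest run of bases that any other probe of the array also holds, which for these genes was 13 to 17 bases, and each sequence runs 5′ to 3′.
Olr1119: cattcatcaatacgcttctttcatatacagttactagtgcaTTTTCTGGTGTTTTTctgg
Olr1163: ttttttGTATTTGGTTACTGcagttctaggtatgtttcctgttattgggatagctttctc
Olr1204: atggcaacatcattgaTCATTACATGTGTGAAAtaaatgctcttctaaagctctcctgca
Olr1219: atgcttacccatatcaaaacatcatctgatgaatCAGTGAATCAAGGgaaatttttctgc
Olr1223: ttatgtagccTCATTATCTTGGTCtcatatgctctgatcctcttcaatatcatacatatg
Olr1145: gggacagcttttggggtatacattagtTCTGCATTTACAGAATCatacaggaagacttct
Olr1237: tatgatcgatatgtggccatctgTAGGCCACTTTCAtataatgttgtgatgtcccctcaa
Olr1262: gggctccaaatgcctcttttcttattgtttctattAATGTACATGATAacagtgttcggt
Olr1302: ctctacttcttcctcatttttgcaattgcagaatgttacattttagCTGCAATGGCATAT
Olr1325: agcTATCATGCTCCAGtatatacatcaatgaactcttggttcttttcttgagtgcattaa
In build rn3 these probes lie on chromosome 8 at chr8:16256473-16256532 (Olr1119, minus strand), chr8:18352058-18352117 (Olr1163, minus), chr8:39394740-39394799 (Olr1204, plus), chr8:40344709-40344768 (Olr1219, plus) and chr8:40391775-40391834 (Olr1223, plus). The others lie at chr8:17541397-17541456 (Olr1145, minus), chr8:40590912-40590971 (Olr1237, plus), chr8:41035969-41036028 (Olr1262, plus), chr8:42331465-42331524 (Olr1302, minus) and chr8:42822265-42822324 (Olr1325, plus).

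A level is given as the log2 of a probe's background-subtracted intensity over the median of its array, so that 0 is the level of the median probe. An intensity under 0.01 of that median was set to 0.01, which is -6.64 on this scale. The median intensity was 82.4 to 164 on adult arrays, 42.1 to 87.8 on newborn arrays and 37.2 to 55.3 on old arrays. Adult arrays were scanned on 2 days of their own, L1 and old arrays on the same day, and L2, L3 and L4 on 2 other days, so adult age and scan day cannot be told apart. The marker list of mature olfactory sensory neurons moved with age, with 12 of its 15 measured genes lower in newborn than in adult rats and none higher, and a median log2 difference of -2.02. The olfactory marker protein gene Omp had a level of 5.16 ± 0.19 (SD, n = 4 litters) in newborn, 7.56 ± 0.23 (n = 4) in adult and 8.26 ± 0.20 (n = 4) in old rats. Of 9 genes of immature neurons, 5 were higher and 1 lower in newborn than in adult rats. Of 10 basal progenitor genes, 6 were higher and 1 lower in newborn than in adult rats, and all 7 skeletal muscle genes were higher. The part of these cell types in the OR results was not tested.

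On average, fewest members were above background in newborn rats and most in old rats. A probe was above background on an array when the scanner software's flags called its spot uniform, unsaturated, significantly positive and well over the local background, and it was called expressed in a group when this held on at least 3 arrays of a litter or 6 of the 8 arrays of adult or old rats. By this measure the expressed members numbered 60, 50, 64 and 63 in the litters L1 to L4, 67 at 9 weeks and 74 at 22 months. The order of the litters and adult rats depended on the rule for detection. With positive and significant spots alone the counts were 106, 99, 110 and 105 in the litters, 101 in adult and 106 in old rats. With every array of a group required they were 49, 31, 42 and 50, then 34 and 59. Under both, 3 of the litters exceeded adult rats. The rule of every array asked for 8 arrays of adult or old rats and for only 4 or 5 of a litter. The adult count of 34 also could not pass 36, the count of the second array of rat 16. Members above background on none of a group's arrays numbered 59, 80, 57 and 67 in the litters and 53 and 51 at the later ages. These counts rest on 4 or 5 arrays per litter and on 8 at each later age. More arrays give a dim member more occasions to be seen, so the counts do not compare the ages. Per array, the mean count above background was 61.8 ± 8.4 (SD, n = 4 litters) for newborn, 70.1 ± 7.8 (n = 4) for adult and 79.1 ± 3.3 (n = 4) for old rats, which is 41.5%, 47.1% and 53.1% of the members. The corresponding shares of the 987 ORs of other chromosomes were 47.9%, 64.2% and 66.6%. Single arrays ranged from 34 to 90 members in newborn, from 36 to 83 in adult and from 72 to 87 in old rats, so that the 3 groups overlapped. The lowest adult count came from the second array of rat 16 (36 members) and the lowest newborn count from L2 rat 24 (34 members). When that adult array was left out, the mean of adult rats became 75.8.

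**Figure D1:**
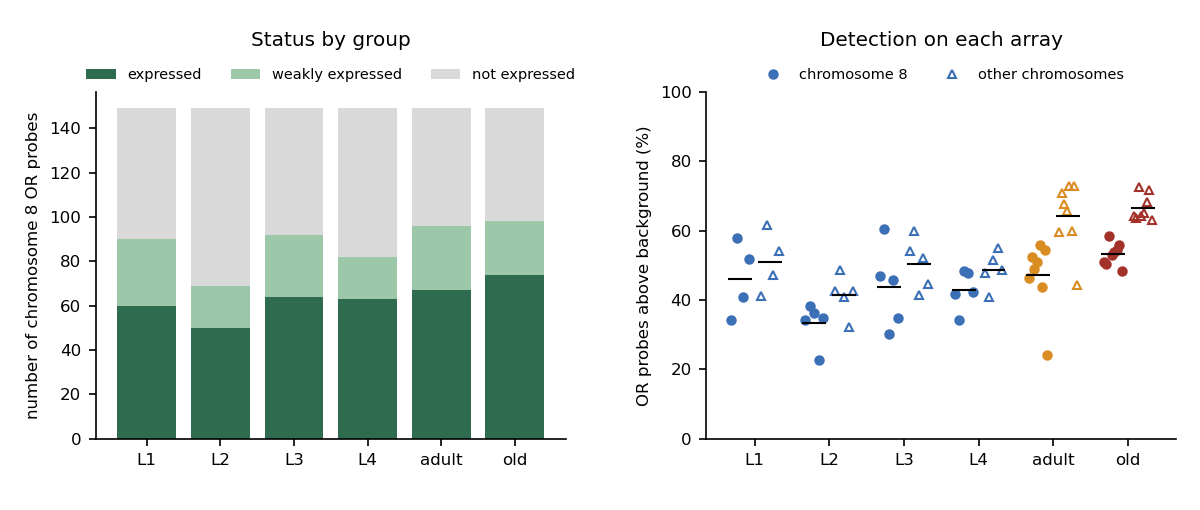
Left, the number of the chromosome 8 OR probes expressed, weakly expressed and not expressed in each litter (L1 to L4), adult and old rats. Right, the percentage of OR probes above background on each array (circles, chromosome 8; triangles, other chromosomes; lines, means over arrays), with 1 adult array at 24.2% well under the other 7.

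A core of 43 members was expressed in all 6 groups, and 23 were above background on every one of the 35 arrays. At the other end, 33 members were above background on no array. Of the 43 members expressed in all groups, 6 were among the 45 members of the block nearer the start of the chromosome and 37 among the 104 members of a second block. Of the 33 undetected members, 16 lay in the first block and 17 in the second. The GC content of the probe moved with detection, with a median of 35.0% for the undetected members, 38.3% for those above background on some arrays and 40% for those above background on all; its part in the result was not tested. The 2 members not named Olr, LOC690849 and XM_236167, were among the undetected.

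In newborn against adult rats, 9 members were higher and 19 lower. A call needed an adjusted p under 0.01 in the limma fit over all probes and expression in the brighter group, which for newborn rats meant at least 1 litter. The 9 higher members were 6.04% of the members, beside 26.2% of all probes called higher, and the 19 lower members were 12.8%, beside 17.3% of all probes. The median log2 difference was -0.24 over the 149 members and 0.11 over all probes, and the first of these lay at -0.01 when the floor was raised to 0.1. The split of 9 higher and 19 lower became 7 and 34 when arrays were scaled to their 75th percentile and 4 and 25 after normexp correction with quantile normalization. Without the second array of adult rat 16 it was 7 and 29.

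Olr1119 (Or7g25c) had the largest rise in newborn rats among the called members. Its level in the pups ran from -0.15 through a median of 0.66 to 1.47, against -0.88, -1.37, -0.93 and -1.60 in the adult rats. Every pup lay above every adult rat. The difference was 3.51-fold (log2 1.81 ± 0.23 SE, limma, adjusted p = 3.5e-07), and the probe was above background on all 19 newborn arrays and on 7 of 8 adult arrays.

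Olr1223 (Or8c16) was also higher than in adult rats, with pups between -1.91 and -0.72 (median -1.28) and adult rats at -2.89, -2.61, -2.85 and -3.79. These groups did not overlap either, and the log2 difference was 1.69 ± 0.23 SE (limma, adjusted p = 7.54e-07). Only 1 of 8 adult arrays was above background, against 18 of 19 newborn arrays, and no fold is given here or below for a probe above background on no more than 1 array of the dimmer group. In all, the pups lay wholly above the adult rats for 4 members, beside 16.0% of all probes.

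Olr1219 (Or8c13) stood between -2.77 and -0.90 in the pups, with a median of -1.46, and at -2.47, -2.83, -2.15 and -4.10 in the adult rats. The groups overlapped, and the difference of 2.67-fold (log2 1.42 ± 0.32 SE, limma, adjusted p = 0.000552) rested partly on adult rat 16, without which the adjusted p was 0.0102. Olr1338 (Or8b57) ran from -2.40 to -0.50 in the pups and stood at -1.64, -2.90, -3.23 and -2.72 in the adult rats, a fold of 2.45 (log2 1.29 ± 0.25 SE, limma, adjusted p = 0.000124). Olr1163 (Or7d10), with a log2 difference of 1.39, and Olr1204 (Or8b35), with a fold of 1.78, overlapped between the ages and lost their call without adult rat 16, as did Olr1219, Olr1288 and Olr1341, which left 4 members called higher. Olr1163 was above background on 7 newborn arrays and 1 adult array. Its call was lost on leaving out any of 6 rats in turn and that of Olr1204 on leaving out any of 19, of 27 rats. The remaining members called higher were Olr1148, Olr1288 and Olr1341, with folds of 1.94, 2.11 and 2.04; these 3 are outside the rule for named genes and were singled out after their values were seen.

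**Figure D2:**
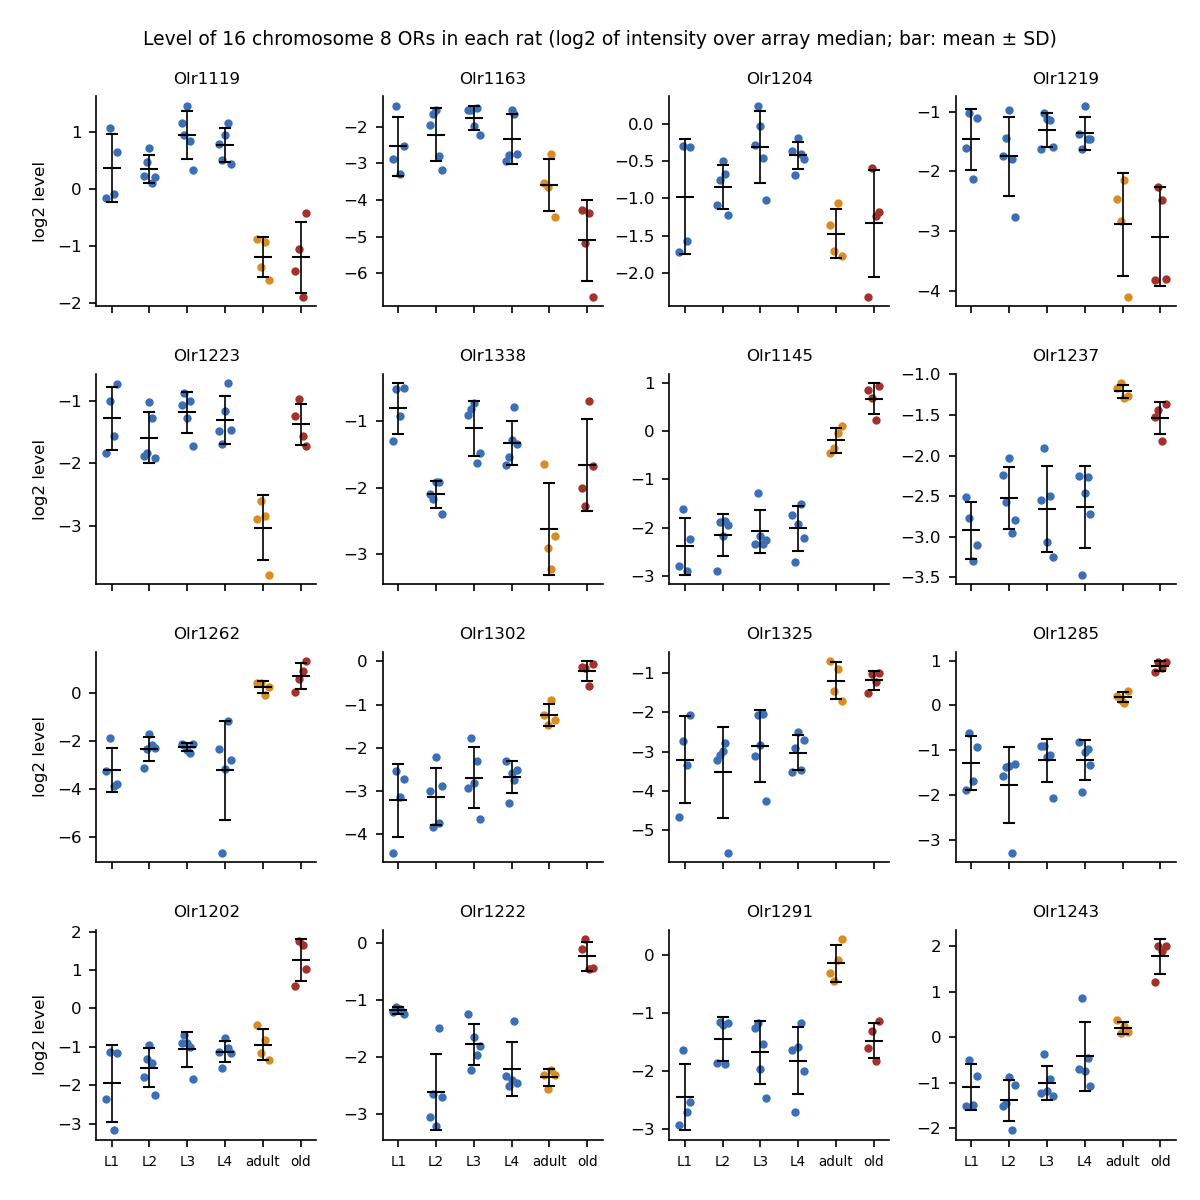
Level of 16 chromosome 8 ORs in each rat (log2 of intensity over the array median; points, rats; bars, mean ± SD of each litter, adult and old rats). Olr1119 and Olr1223 show every pup above every adult rat, and Olr1145, Olr1237, Olr1262, Olr1302, Olr1325, Olr1285 and Olr1291 every pup below.

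The 19 members lower in newborn than in adult rats differed by 1.80-fold to 7.91-fold, and for 11 of them every pup lay below every adult rat. Over all 149 members such a separation was found for 12, beside 10.6% of all probes. Olr1262 (Or8b54c) had the largest fall. Its level was 0.38, 0.41, -0.12 and 0.24 in the adult rats, while the pups lay between -6.64, the floor, and -1.16 with a median of -2.35. Its fold was 7.91 (log2 -2.98 ± 0.54 SE, limma, adjusted p = 4.46e-05), and it was above background on all 8 adult arrays and on 4 of 19 newborn arrays.

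Olr1145 (Or7g33c) rose from a median of -2.18 in the pups (range -2.90 to -1.28) to -0.46, -0.35, -0.05 and 0.10 in the adult rats, a fold of 3.91 (log2 -1.97 ± 0.24 SE, limma, adjusted p = 1.48e-07). Every pup lay below every adult rat. Olr1325 (Or8g2c) differed by 3.88-fold, Olr1291 (Or8g26c) by 3.28-fold and Olr1285 (Or8g34) by 2.94-fold, each with the groups apart. Olr1325 was above background on only 1, 0, 2 and 0 arrays of L1 to L4, with a median pup level of -2.98. Its fold thus rests on newborn signals mostly not above background. Olr1302 (Or8g20), above background on 1 newborn array, had a log2 difference of -1.69 with the groups apart. Olr1237 (Or8b43b) stood at -1.17, -1.11, -1.29 and -1.26 in the adult rats and between -3.47 and -1.91 in the pups, of whose arrays 1 was above background (log2 -1.48 ± 0.22 SE, limma, adjusted p = 3.36e-06). The adult rats differed little among themselves for this gene, with an SD of 0.08.

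Against old rats the newborn rats had 4 members higher and 52 lower, which is 2.68% and 34.9% of the members, beside 19.5% and 20.3% of all probes. The median log2 difference was -0.90 over the members and -0.04 over all probes. Every pup lay below every old rat for 39 members, beside 11.9% of all probes, and above every old rat for 2, beside 10.3%. The 52 lower members, each well above background on at least 1 array of both ages, differed by 1.55-fold to 10.9-fold with a median log2 size of 1.70. L1 and old arrays were scanned on the same day, and within that day 44 members were lower and 2 higher in L1 than in old rats, beside 18.2% and 12.5% of all probes.

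The largest of these differences was that of Olr1262, with old rats at 0.02, 0.55, 0.90 and 1.30 and no pup above -1.16 (10.9-fold, log2 -3.45 ± 0.54 SE, limma, adjusted p = 8.29e-06). Olr1203 (Or8b101b) was 7.17-fold and Olr1145 7.08-fold lower in newborn rats, with every pup below every old rat in both; Olr1203 was above background on 2 newborn arrays. Olr1243 (Or8b44), with 1 old rat at 1.21, another at 1.89 and the other two at 2.0, and with pups between -2.05 and 0.86, differed by 6.72-fold. Olr1202 (Or8b4) differed by 6.35-fold, and Olr1302, on 1 newborn array, had a log2 difference of -2.71. Olr1251 (Or8b50) was called lower (log2 -3.27 ± 0.73 SE, limma, adjusted p = 0.000541), but it was above background on 1 newborn array, and its pups ranged from the floor at -6.64 to -0.34 in L2 rat 23 and overlapped the old rats at -0.93, -0.76, -0.68 and -0.04.

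The 4 members higher in newborn than in old rats were Olr1119, Olr1163, Olr1219 and Olr1200 (Or8b9), the last of them outside the rule for named genes and named after its values were seen. Olr1119 stood at -1.43, -1.05, -1.89 and -0.42 in the old rats, all of them below every pup, a fold of 3.51 (log2 1.81 ± 0.23 SE, limma, adjusted p = 4.57e-07). It kept this direction within the shared scan day, with L1 above old rats by 1.57 on the log2 scale (limma, adjusted p = 0.000131). Olr1163 was not well above background on any old array, and its signal at -4.26, -5.16, -4.35 and -6.64 in the old rats lay below every pup (-3.30 to -1.43); no fold is given, since the pups themselves lay near the lowest measurable level. Olr1219 was not above background on any old array either, and its newborn level was at least 1.59-fold higher (limma, adjusted p = 0.00015). A bound of this kind sets the newborn mean against a level within the range of the old arrays' lowest signals still well above background. Those ran from -2.501 to -1.894 over the old arrays, so the bound is not strict for every array. Olr1200 was 2.15-fold higher, with old rats at -3.05, -0.50, -1.84 and -1.40 overlapping the pups (-1.36 to 0.08), and its call was lost without old rat 17 and without old rat 19. The call of Olr1163 against old rats was lost on leaving out any of 3 pups of L3 in turn.

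Between adult and old rats, 1 member was higher in adult rats and 29 were lower, 0.671% and 19.5% of the members beside 10.1% and 19.4% of all probes. Every adult rat lay below every old rat for 52 members, beside 27.9% of all probes, and above for 4, beside 15.7%. The median log2 difference was -0.69 over the members and -0.14 over all probes. The share called lower in adult rats was thus near that of the array as a whole, and without adult rat 16 the 29 fell to 20.

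Olr1222 (Or8c15b) stood at -2.33, -2.57, -2.24 and -2.32 in the adult rats and at -0.12, 0.06, -0.46 and -0.45 in the old rats, 4.34-fold higher in the latter (log2 -2.12 ± 0.29 SE, limma, adjusted p = 2.55e-06). Old rats also exceeded adult rats 4.56-fold for Olr1202 and 4.82-fold for Olr1253 (Or8b51), each with the groups apart. Olr1303 (Or8g36c), Olr1332 (Or10d5b) and Olr1115 (Or7g23b) were not above background on any adult array, and the old rats exceeded them at least 3.06-fold, 2.13-fold and 2.11-fold. The adult arrays' lowest signals still well above background ran from -2.817 to -1.863, so these bounds are not strict for every array either. Olr1253, Olr1303, Olr1332 and Olr1115 lost their call without adult rat 16, and all but Olr1332 also lost it on leaving out any of 2 or 3 other rats in turn. Olr1291 was the only member called higher in adult rats, at -0.31, -0.44, -0.08 and 0.28 against -1.60, -1.31, -1.83 and -1.14 in the old rats (2.52-fold, log2 1.33 ± 0.33 SE, limma, adjusted p = 0.00193). Its pups lay between -2.93 and -1.15, and the difference between newborn and old rats was not called (log2 -0.38, limma, adjusted p = 0.229).

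Olr1219 was the only member expressed in all 4 litters and in neither adult nor old rats. Its newborn arrays above background numbered 4 of 4, 3 of 5, 5 of 5 and 5 of 5 in L1 to L4, beside 3 of 8 adult and 0 of 8 old arrays. Under a demand for every array of a group there were 3 such members, and when any single array sufficed there were 0. The neighbours of Olr1219 on the chromosome, Olr1218 (Or8b101d) and Olr1220 (Or8c16c), were above background on no array. A further 5 members were expressed in 1 or more litters but at neither later age: Olr1126, Olr1163, Olr1260, Olr1288 and Olr1338. Of these, Olr1126, Olr1260 and Olr1288 were listed after their values were seen, and each was above background on 3 or 4 adult arrays.

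The opposite pattern, expression in adult and old rats and in no litter, was found for 8 members: Olr1122, Olr1203, Olr1237, Olr1251, Olr1262, Olr1264, Olr1302 and Olr1325. Of these, 3 rose above background on no more than 1 newborn array. Olr1237 was so on 1 newborn array, in L3, on all 8 adult arrays and on 7 old arrays. Olr1302 was so on 1 newborn, 7 adult and 8 old arrays, and its level rose from pups at -4.43 to -1.78 to adult rats at -1.25, -1.48, -0.89 and -1.36 and old rats at -0.12, -0.16, -0.56 and -0.06, the newborn group being apart from both others. Olr1251 was so on 1 newborn, 6 adult and 8 old arrays. The members expressed in old but not in adult rats numbered 11 and those expressed in adult but not in old rats numbered 4, which were Olr1214, Olr1261, Olr1314 and Olr1329 and were listed after their values were seen.

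Several dim members passed the threshold of the test without being expressed in the brighter group, and were therefore not called. There were 9 of these for newborn against adult rats, 15 for newborn against old rats and 5 for adult against old rats. Olr1177, Olr1283 and Olr1321 are examples, each above background on 1 newborn array and on no adult or old array. Their log2 differences of 3.45, 3.16 and 2.54 between newborn and adult rats compare signals near or below background, so they give no fold.

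Few members were called different between litters. By an F test over the 4 litter means, 2 members differed, 1.34% of the members beside 22.2% of all probes. Olr1222 had litter means of -1.19, -2.62, -1.79 and -2.22, in the order L1 to L4 (limma, adjusted p = 0.0015), and was above background on 4 of 4, 0 of 5, 4 of 5 and 1 of 5 arrays. Each litter had a slide of its own, apart from L2 rat 24, L3 rats 26 and 28 and L4 rat 34. Those pups were on other slides, scanned on another day than their littermates. For Olr1222 they stood at -1.49, -1.26, -1.66 and -1.38, above all their littermates (L2 -3.21 to -2.65, L3 -2.23 to -1.81, L4 -2.52 to -2.34). The parts of litter, slide and scan day in this difference were not tested. Olr1338 had litter means of -0.80, -2.10, -1.11 and -1.32 in L1 to L4 (limma, adjusted p = 0.00892), with L2 lowest. L2 had the lowest mean of the 4 litters for 83 members and L3 the highest for 78. Tied litters, such as those all at the floor, were each counted, and the 33 members above background on no array were included. Without L2 rat 24 the members that differed numbered 5.

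The members formed 2 blocks, taking a gap of over 1 Mb as a border. The first held 45 members from 16102355 to 19331025, mostly of families Or7g, Or7e and Or7d, and the second 104 members from 38981734 to 43149183, mostly of Or8b, Or8g, Or8c and Or10d, with 19.65 Mb between them. In the first block 15 members were expressed in old rats, in the second 59. Between newborn and old rats 10 and 42 members were lower in newborn rats, 22.2% and 40.4% of the blocks beside 20.3% of all probes. Those higher numbered 2 and 2, beside 19.5% of all probes, and the median log2 differences were -0.68 and -1.09. Between newborn and adult rats 4 and 15 were lower, 8.9% and 14.4% of the blocks beside 17.3% of all probes. Those higher numbered 3 and 6, beside 26.2% of all probes, and the medians were -0.16 and -0.26. A border at 0.5 Mb gave 5 blocks of 4, 41, 14, 57 and 33 members.

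In windows of 10 neighbouring members the median log2 difference between newborn and adult rats ran from -0.80 (Olr1194 to Olr1204) to 0.26 (Olr1162 to Olr1179) over the full windows. Neighbours within a block differed in that change by a median of 0.92 on the log2 scale, beside 0.95 for all pairs of members; for newborn against old rats the values were 0.99 and 1.16, and for adult against old rats 0.76 and 0.85. Among the 43 members expressed in all 6 groups the first comparison gave 0.62 and 0.65. The window from Olr1206 to Olr1225 was singled out because it holds Olr1219 and Olr1223. These were the 2 of its 10 members called higher in newborn than in adult rats, beside 26.2% of all probes. Its count is therefore no separate result. The last window, of 4 members (Olr1338 to Olr1341), also held 2 higher and 0 lower.

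**Figure D3:**
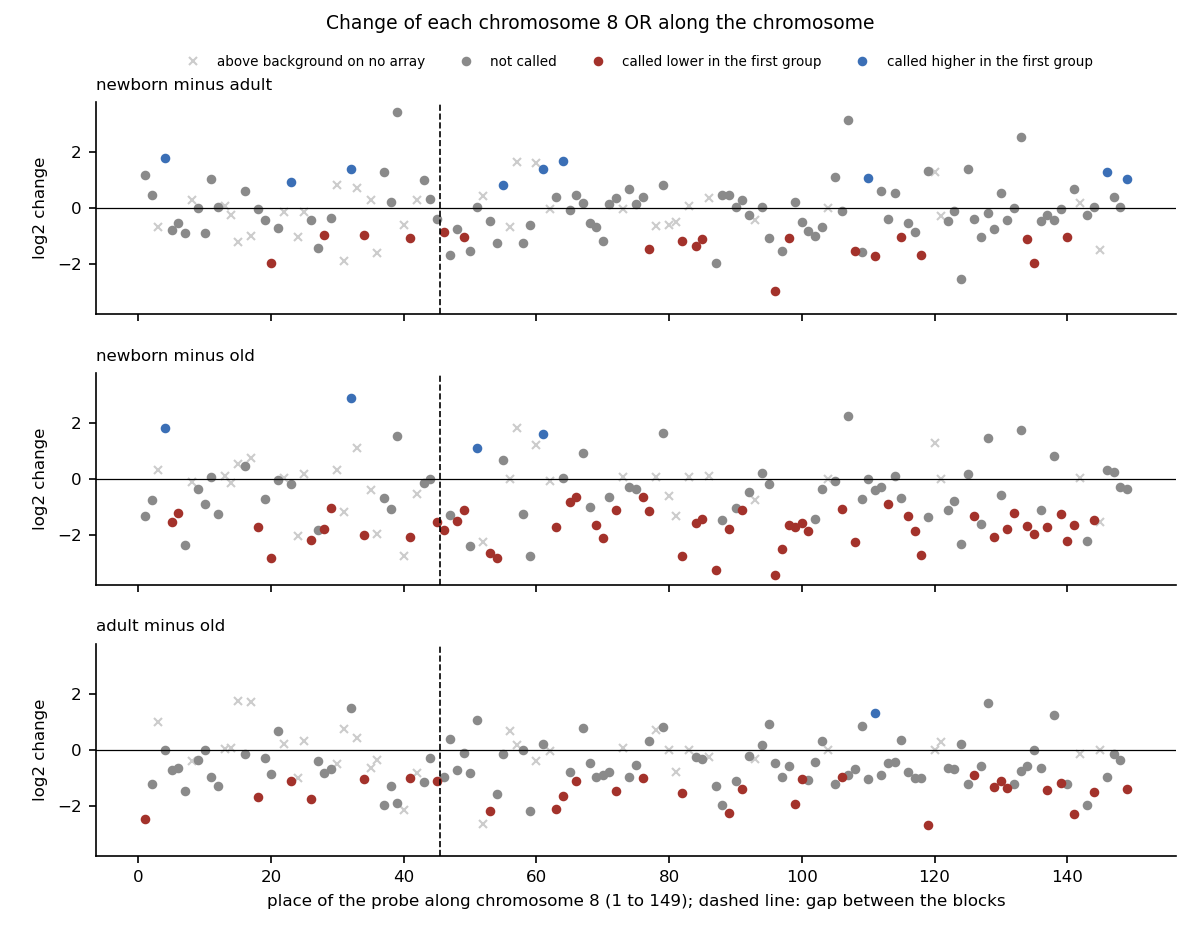
Log2 change of each of the 149 members in order along chromosome 8 in the 3 comparisons (blue, called higher in the first named group; red, called lower; grey, not called; crosses, above background on no array; dashed line, gap between the blocks). Both blocks hold red points in every comparison, and for newborn minus adult 1 of the 9 blue points lies before the first red point and 2 after the last.

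Detection is given by subfamily as counts. Of 25 Or7g members, 9 were above background on no array and 8 were expressed in old rats, and of 8 Or7e members 6 were on no array. Of 37 Or8b members 20 were expressed in old rats, of 29 Or8g members 19, of 12 Or8c members 7 and of 10 Or10d members 6. Between newborn and old rats, 15 Or8b, 12 Or8g, 5 Or8c, 5 Or10d and 4 Or7g members were lower in newborn rats. As shares these were 40.5% of the Or8b, 41.4% of the Or8g, 41.7% of the Or8c and 16.0% of the Or7g members. The share of all probes was 20.3%, and in Or10d 5 of the 10 members were lower. Members higher than in old rats numbered 1 each in Or7g, Or8b and Or8c and 0 in Or8g and Or10d, beside 19.5% of all probes. Between newborn and adult rats, 2 members of Or7g, 2 of Or8b, 2 of Or8c and 1 of Or8g were higher, and 1, 6, 0 and 6 were lower. The lower ones were 4.0% of the Or7g, 16.2% of the Or8b and 20.7% of the Or8g members, beside 17.3% of all probes. Of all probes, 26.2% were called higher. Whether the subfamilies differed was not tested.

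**Figure D4:**
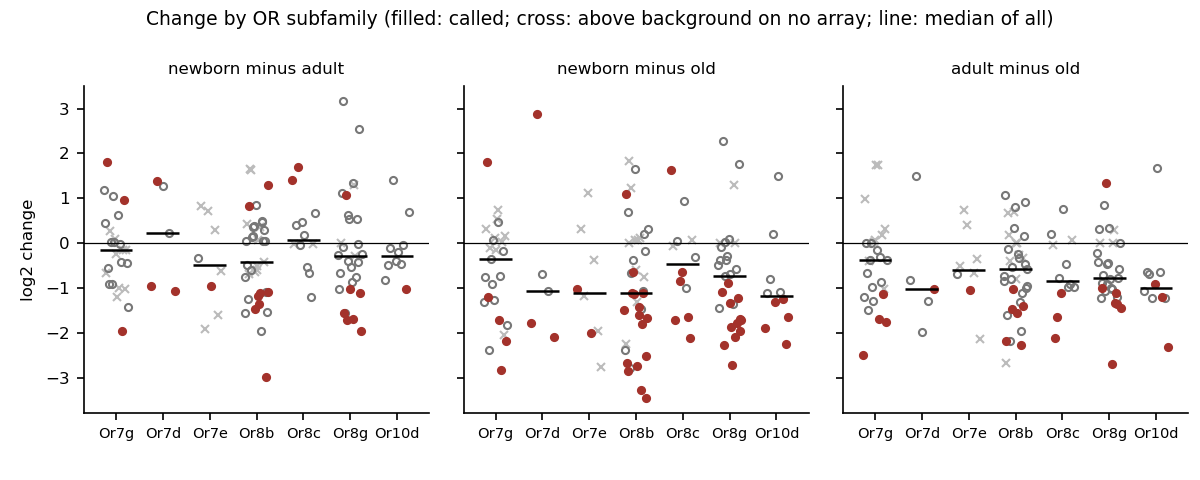
Log2 change of the members of 7 subfamilies in the 3 comparisons (filled circles, called; open circles, not called; crosses, above background on no array; lines, median of all members of the subfamily). The median of Or8c is 0.08 for newborn minus adult, and those of Or8b and Or8g are -0.42 and -0.29.

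Probes of related genes are shown because a transcript could bind more than 1 of them. The most alike pair was Olr1194 and Olr1195 (Or8a1b and Or8a1), neighbours 28.5 kb apart, whose probes share 54 of 60 bases in the same positions; capitals mark the 6 that differ.
Olr1194: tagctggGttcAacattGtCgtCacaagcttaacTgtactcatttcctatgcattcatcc
Olr1195: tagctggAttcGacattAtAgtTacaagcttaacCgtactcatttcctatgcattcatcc
Olr1194 was above background on 30 arrays and Olr1195 on 1. Olr1194 was lower in newborn than in old rats by 3.53-fold (limma, adjusted p = 7.38e-07), and Olr1195 was below background in nearly every sample. The pair Olr1230 and Olr1234 (Or8c20 and Or8c11), 50.6 kb apart, share 50 bases, and capitals mark the 10 that differ.
Olr1230: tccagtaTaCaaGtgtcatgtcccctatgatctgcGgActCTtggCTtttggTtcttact
Olr1234: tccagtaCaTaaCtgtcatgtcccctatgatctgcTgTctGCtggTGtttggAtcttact
Olr1230 was above background on 3 newborn arrays, all in L1, and on 7 old arrays, and was 4.34-fold lower in newborn than in old rats (limma, adjusted p = 0.0002). In L1, scanned on the day of the old rats, its pups stood at -2.19, -2.14, -3.29 and -2.65. The old rats stood at -1.62, -1.85, -1.28 and -1.28. Pups of the other litters, above background on no array, ran from -6.64, the floor, to -2.62, so the fold rests largely on signals not above background. Olr1234 was above background on 18 newborn, 6 adult and 6 old arrays, and its old rats stood at 0.18, 0.06, -2.04 and -2.19, so that 2 of them lay above and 2 at the lower edge of the pups (-2.09 to -0.19). Its difference between newborn and old rats was not called (log2 -0.30 ± 0.34 SE, limma, adjusted p = 0.504). Only these first 2 members had an OR probe on the array with as many as 54 identical bases.

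Olr1271 was the only gene with 2 probes starting at positions 41178242 and 41179081 of build rn3, both above background on all 35 arrays. Both were lower in newborn than in old rats, by 3.31-fold and 2.96-fold, and lower in adult than in old rats, by 3.87-fold and 2.07-fold (limma, adjusted p = 3.69e-06 and 0.0057). The second probe's call between adult and old rats was lost on leaving out any of adult rats 14 and 16 and old rats 18, 19 and 20. Between newborn and adult rats they had opposite signs, 0.23 ± 0.21 SE and -0.52 ± 0.23 SE on the log2 scale, and neither was called (limma, adjusted p = 0.393 and 0.0604).

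The levels of Olr1219 over the 27 rats followed those of Olr1163 (Pearson's r = 0.836), Olr1119 (0.805) and Olr1204 (0.795) most closely among the members. Those of Olr1119 followed Olr1283 (0.83), Olr1177 (0.821) and Olr1321 (0.805), which are the dim members named above. The rats share their arrays' scaling and fall into 3 ages, so these values describe the pattern over ages and arrays and carry no test. Olr1121 (Or1m1) was 2.90-fold lower in newborn than in old rats (limma, adjusted p = 6.94e-05) with overlapping rats, and Olr1125 (Or7g12) was above background on no array.

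The median difference between newborn and adult rats was smaller over the members than over the ORs of other chromosomes, which is given as a description. Among the 987 other OR probes 45 were higher and 383 lower in newborn rats, 4.56% and 38.8%, with a median log2 difference of -0.94 beside -0.24. The corresponding medians for newborn against old rats were -1.58 and -0.90, and those for adult against old rats were -0.58 and -0.69. Among probes expressed in all 6 groups the medians for newborn against adult rats were -0.93 over 349 other ORs and -0.26 over 43 members. Over the 8 chromosomes with at least 30 OR probes, the share called lower in newborn than in adult rats was 12.8% on chromosome 8 and between 26.5% (chromosome 1) and 64.5% (chromosome 11) on the others. Other values set chromosome 8 less apart. The median for newborn against adult rats over probes expressed in all 6 groups was -0.14 on chromosome 15 (13 probes), and the median for newborn against old rats was -0.92 on chromosome 7. No test set the chromosomes against each other. The median GC content of the probes was 38.3% on chromosome 8 and 40% over the other ORs, and its part in these differences was not tested.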

How the data were processed

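Olfactory epithelium RNA was hybridised to 35 Agilent arrays of a single colour. The deposited scanner files hold background-subtracted spot intensities, which the authors extracted with Feature Extraction 9.5.1.1 (8 adult arrays) or 9.5.3.1 (27 arrays), per the file headers. The deposited matrix holds a ratio that the authors made by dividing each intensity by its array's median and then by the gene's median over arrays; it served as an alternative only. Positions are those of build rn3 in the files. RefSeq names came from a table of assembly GRCr8, used for names only.

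Levels are the log2 of intensity over the array median, with a floor of 0.01, and the values of both nostrils were averaged for each adult and old rat. limma 3.58.1 in R 4.3.3 (lmFit, eBayes with an intensity trend) was fitted once over 41012 probes and 6 groups, with newborn as the mean of the 4 litters and Benjamini-Hochberg adjustment over all probes. Rats are separate animals, and their number limits the precision. The SE and adjusted p rest on the spread of rats within the 6 groups, with pups counted singly, so they leave out the spread between litters. Alternatives were other scalings, floors, background correction, probe filters, random blocks for rat, slide and scan day, litter means, the methods' t-test, other detection rules and leaving out each rat. The settings without single weak arrays were chosen after seeing the data. The fit was tested on simulated data. Python 3.11.15 with numpy 2.4.6, pandas 2.3.3 and matplotlib 3.10.9 did the rest.

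The members and lists were chosen with earlier results of these data known. Named genes were the members that the study names, the 6 with the largest called changes in each direction whose groups did not overlap, those expressed in all litters and at neither later age with their neighbours, the 8 with the largest change of newborn against adult rats among those above background on at most 1 newborn array and expressed at both later ages, and the 3 most like Olr1219 and Olr1119. Marker lists covered mature and immature olfactory sensory neurons, basal progenitors, sustentacular cells, ciliated respiratory cells, skeletal muscle, red cells, macrophages and bone.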

Additional observations from a re-analysis of the deposited data

Results flagged for a closer look

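Of 186 sets of 4 or 5 rats that were examined, 16 held a rat far from the rest, where chance gives about 1 in 20. Among the pups, Olr1115 stood at -6.64 in L2 rat 22 (others -3.50 to -2.38) and at -4.49 in L3 rat 30 (others -2.11 to -1.59). L3 rat 30 was also low for Olr1202 at -1.84 (others -0.99 to -0.68), for Olr1285 at -2.08 (others -1.15 to -0.90) and for Olr1220 at -6.64 (others -4.79 to -4.30). L2 rat 24 stood at -3.29 for Olr1285 (others -1.58 to -1.32) and L2 rat 25 at -5.57 for Olr1325 (others -3.21 to -2.78). L4 rat 34 was high for Olr1222 at -1.38 (others -2.52 to -2.34) and for Olr1303 at -1.11 (others -2.74 to -2.46). L2 rat 24 and L4 rat 34 were each the only pup of their litter on another slide and scan day. The part of slide and day in these values was not tested. L3 rat 27 was high for Olr1145 at -1.28 (others -2.33 to -2.17), and L1 rat 12 for Olr1332 at -1.49 (others -2.0 to -1.93). Olr1220 in L4 rat 35, at -6.41, differed only from rats at the floor.

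Among old rats, rat 17 was low for Olr1243 at 1.21 (others 1.89 to 2.0) and rat 18 stood at -4.55 for Olr1321 (others -5.31 to -5.24), a level below background. L2 rat 24 had 34.0 members above background (others 51 to 57), and adult rat 16 had 58.5 as the mean of its arrays (others 73.5 to 74.5).

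The litters, which largely went with slides, differed for Olr1222 (limma, adjusted p = 0.0015) and Olr1338 (limma, adjusted p = 0.00892). For Olr1220, which was above background on no array, the adjusted p was 0.00572 (limma), and its levels near the floor give no order of litters.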

How the results depend on the processing

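No paired analysis was possible because each rat number belongs to 1 group. No called log2 change of a named gene and no median changed sign, but the order of expressed members in litters and adult rats turned under 2 detection rules. Changes of named genes that were not called were not followed over the settings. The cause of the changes below was not tested. Scaling to the 75th percentile gave 34 members lower in newborn than adult rats, medians of -0.57 (newborn minus old) and -0.29 (adult minus old), and 8 members differing between litters. Quantile normalization gave 1 such member. Normexp with quantile normalization gave 4 higher than in adult rats, medians of -0.04, -0.12 and -0.06 in the 3 comparisons, and 1 member higher in L1 than old rats. A floor of 0.1 gave medians of -0.01, -0.48 and -0.35. With rat as a random block 1 member was higher in L1 than old rats. With slide as a block 5 were higher than in adult rats, 1 differed between litters and 0 were higher in L1 than old rats, and with scan day 5, 2 (newborn above old) and 1 (litters). Litter means gave 4 and 2 members higher than in adult and old rats, and the methods' t-test 3 and 0, with 16 lower in adult than old rats.

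Among probes expressed in all 6 groups, 2 and 2 members were higher in newborn than adult and old rats, 31 lower than in old rats (median -1.12), 0 higher and 19 lower in adult than old rats, 1 differed between litters and 1 was higher in L1 than old rats; the first block's medians were -0.65 and -1.40 against adult and old rats. Among probes expressed in at least 1 group the medians were -1.31 (newborn minus old) and -0.97 (adult minus old). Counting positive and significant spots alone gave 106, 99, 110 and 105 expressed members in the litters, 101 in adult and 106 in old rats, 89 in all 6 groups, 2 in newborn rats only, 2 at both later ages and in no litter, 9 at both later ages and not in all litters, 3 on no array, and means above background of 106.8, 109.2 and 110.8. Demanding every array gave 49 (L1), 31 (L2), 42 (L3), 50 (L4), 34 (adult), 59 (old), 23 (all 6 groups), 3 (newborn only), 4 (no litter) and 8 (not all litters), and accepting 1 array gave 0 (newborn only) and 4 (no litter). Without the second array of adult rat 16, a setting chosen after seeing the data, 29 members were lower in newborn than adult rats and 2 higher in adult than old rats; without L2 rat 24 as well, 2 and 5 (litters). A gap of 0.5 Mb gave 5 blocks.

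Leaving out 1 rat at a time gave 4 to 10 members higher and 16 to 24 lower in newborn than adult rats (median -0.33 to -0.18), 3 to 5 and 44 to 53 against old rats (-1.0 to -0.86), and 1 to 2 and 20 to 32 for adult against old rats (-0.77 to -0.53). It gave 1 to 5 members differing between litters, and 1 to 3 higher and 36 to 47 lower in L1 than old rats. Expressed members ranged from 49 to 60, 43 to 50, 55 to 64 and 58 to 63 in the litters, 59 to 67 in adult and 70 to 75 in old rats, with 38 to 43 in all 6 groups, 0 to 1 in newborn only, 6 to 9 in no litter, 15 to 25 not in all litters and 33 to 36 on no array. Means above background were 60.2 to 63.3, 68.7 to 74.0 and 77.8 to 80.3.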

Other observations

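Other cell type lists also moved with age. Of 5 measured sustentacular genes, 2 were lower in newborn than in adult rats and 5 lower than in old rats. All 4 red cell genes and 3 of 6 macrophage genes had higher levels in newborn rats than in adults, and 3 red cell genes were higher than in old rats. Against old rats the macrophage genes were split, with 2 higher and 2 lower in newborn rats and a median log2 difference of -0.29. Of 5 ciliated cell genes 1 was higher in newborn than in adult rats, and 0 were called between newborn and old rats. Of 6 bone genes, 2 were lower in newborn than in adult rats, and 5 were higher in newborn and 4 in adult than in old rats. Between adult and old rats, 1 mature neuron gene was higher and 3 lower in adult rats, whereas 2 immature neuron genes and 4 basal progenitor genes were higher. The part of these cell types in the levels of the chromosome 8 ORs was not tested.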
